A study of Mus musculus with 48 samples.

Results

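Whole soleus and whole vastus lateralis of adult mice, the hindlimb muscles with the most and the least slow myosin of the 4 sampled, were compared by mRNA sequencing. The comparison used 12 of the 48 libraries of the series, 6 of adult soleus and 6 of adult vastus lateralis, chosen by their stage and muscle alone. All were from male FVB/NJ mice, an inbred strain, with no genetic change and no treatment, and the labels say that 6 adult males gave the muscles. The series design text gives the adults as postnatal day 56, whereas the growth protocol has adults obtained at 3 to 4 months. Soleus lies in the shank and vastus lateralis in the thigh, so slow against fast and shank against thigh cannot be told apart in this comparison alone. The other adult muscles, vastus intermedius (slow-biased, thigh) and gastrocnemius (fast-biased, shank), were used only as a second comparison in which the regions are exchanged. Whole muscles hold fibres, vessels, nerve, connective tissue and blood, and fewer cells of a type and less RNA per cell cannot be told apart in such samples.

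Muscle fibres are classed by the myosin heavy chain they use. Slow (type I) fibres use Myh7, take up calcium with the pump Atp2a2 and draw on fatty acids and oxygen, while fast fibres use Myh2 (IIA), Myh1 (IIX) or Myh4 (IIB), pump calcium with Atp2a1 and, in IIB fibres, rely on glycogen and glycolysis. Most sarcomere proteins exist as paired slow and fast isoforms encoded by different genes, and the mouse soleus is known as a mixture of type I and IIA fibres.

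Levels are read counts relative to the library total (CPM), scaled by the trimmed mean of M values (TMM), given as the lowest to the highest of the 6 libraries of a muscle with the median. Differences are log2 of soleus over vastus lateralis ± standard error, so positive values are higher in soleus, and adjusted p-values are from edgeR's quasi-likelihood test with Benjamini-Hochberg adjustment over all 13643 genes tested. A gene is called when its adjusted p is below 0.05. Libraries held 20030408 to 24796121 counts in soleus and 14935541 to 32383982 in vastus lateralis, and the 20 most abundant genes took 24.8% to 29.4% and 39.1% to 45.5% of them. The first principal component, 70.3% of the variance, separated the muscles. The adult collections, named A to F from the date tags of the columns, held 1 library of each muscle. The vastus lateralis library of collection D stood apart (14935541 counts and a mean correlation of 0.951 with its group against 0.966 to 0.971 for the others), and the soleus library of collection A was highest of the soleus libraries in Ppargc1a, Vegfa, Hk2 and Schwann cell markers. Without the first, 8374 genes were called, and without the second 8168.

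Of the 13643 genes tested, 8345 were called (61.2%), and 8836 had an unadjusted p below 0.05. The 4376 higher in soleus (32.1%) and the 3969 lower (29.1%) depend on the scaling: DESeq2 called 5009 higher and 4119 lower, and with total counts alone 7938 were higher and 1556 lower, where the median gene stands at 0.55 against 0.06 with TMM. Directions of small differences are therefore relative to the median gene. A difference over 2-fold was called for 3267 genes (23.9%), 2100 higher and 1167 lower. Past 8-fold, 283 genes were higher and 147 lower, and past 32-fold 108 and 47. In 5444 genes (39.9%) the highest library of one muscle was below the lowest of the other. Counts of called members of the gene lists below are to be read beside the 61.2% over all genes. For instance, the share called was 71.0% in growth genes, 71.4% in reference genes, 73.3% in splicing and transcription and 75% in energy regulators.

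The upper end of the span was made of slow sarcomere genes. Of the 12 highest differences among named genes with at least 10 CPM in a muscle, 10 were slow sarcomere genes, from Myl3 at 13.85 to Ankrd2 at 9.73. The others were Lgi1, a secreted leucine-rich repeat protein known from the brain, with 10609 counts in soleus and 3 in vastus lateralis, and Sv2b, a synaptic vesicle membrane protein, with 2858 and 1. The lower end was more varied. It held the fast sarcomere genes Myh4 (-10.496), Actn3 (-9.99) and Mybpc2 (-7.39), the calcium buffer Pvalb (-8.26), the myosin binding protein H gene Mybph (-7.84 ± 0.51), the growth inhibitor Mstn (-7.11), the homeobox factor Six2 (-7.06), Mss51 (-7.099), the cadherin Cdh4 (-7.32 ± 0.22), the neurexin-family gene Cntnap2 (-7.49 ± 0.44), the transmembrane gene Tmem132b and the immunoglobulin heavy chain Ighm. Ighm stood at 0.763 to 2.67 CPM (median 2.29) in soleus and 180.2 to 799.9 CPM (median 244) in vastus lateralis, without overlap (log2 difference -7.37 ± 0.45), and the leukocyte markers as a group did not share that direction.

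**Figure D1:**
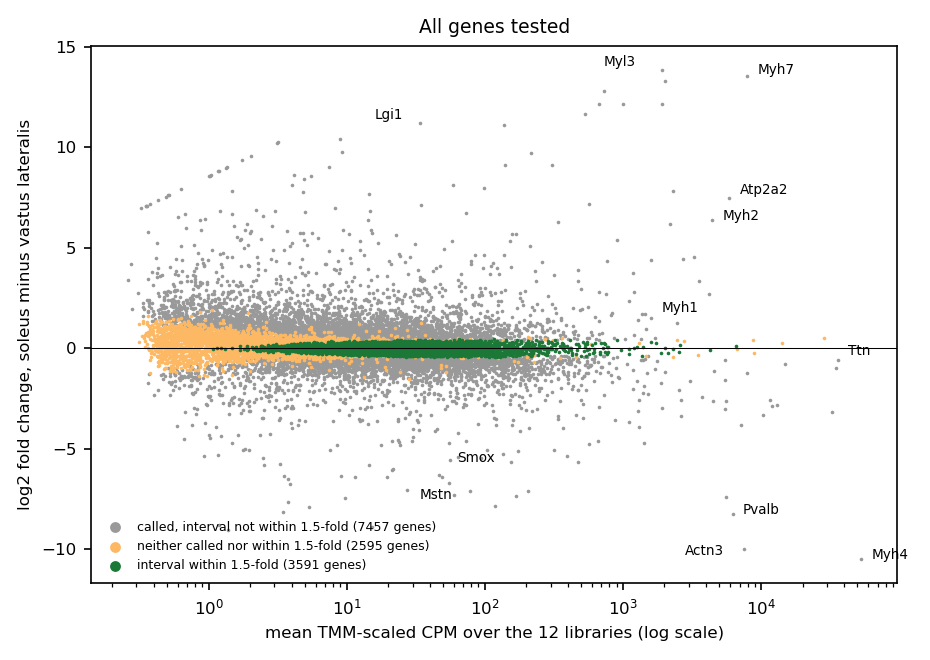
Log2 difference of soleus over vastus lateralis (vertical axis) against mean TMM-scaled CPM over the 12 libraries (horizontal axis, log scale) for the 13643 genes tested, coloured by whether a gene is called or has its interval within 1.5-fold. Slow sarcomere genes such as Myl3 (13.85) lie at the top and Myh4 (-10.50) and Actn3 (-9.99) at the bottom, and the 3591 genes within 1.5-fold lie along 0.

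The myosin heavy chains set the scale. Myh7, the slow chain, stood at 10898 to 21223 CPM (median 15758) in soleus and 0 to 7.01 CPM (median 0.0231) in vastus lateralis, a log2 difference of 13.53 ± 1.10. Slow myosin content chose the muscles, so the Myh7 difference is a description and no p-value is given for it. Myh2, the IIA chain, stood at 6347 to 10402 CPM (median 8903) in soleus and 73.9 to 164 CPM (median 102) in vastus lateralis, a log2 difference of 6.37 ± 0.24 (adjusted p = 8.82e-12). Myh4, the IIB chain, stood at 53.9 to 118 CPM (median 66.02) in soleus and 89265 to 132356 CPM (median 103499) in vastus lateralis, a log2 difference of -10.496 ± 0.32 (adjusted p = 1.26e-12). For all 3 the muscles did not overlap in any library. Myh1, the IIX chain, was higher in soleus as well, at 672 to 3278 CPM (median 2529) in soleus and 107 to 2124 CPM (median 646) in vastus lateralis, a log2 difference of 1.502 ± 0.56 (adjusted p = 0.0289), but here the muscles overlapped: soleus of collection E was as low as 672 CPM. The Myh1 call was lost without collection A (1.46), C (1.13) or D (1.24, and 1.31 without its vastus lateralis library only), with adjusted p-values of 0.0572 to 0.0899. It was lost too with all 24 adult libraries in the fit (adjusted p = 0.104). These genes are close paralogs in a cluster or, for Myh6 and Myh7, side by side, so reads may be split between them.

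Of the summed counts of 6 heavy chain genes, Myh7 took 58.2% ± 6.24 (SD, n = 6) in soleus, Myh2 32.7% ± 6.87, Myh1 8.81% ± 3.46 and Myh4 0.266% ± 0.064. In vastus lateralis Myh4 took 99.1% ± 0.754, Myh1 0.817% ± 0.721, Myh2 0.1003% ± 0.0295 and Myh7 0.00141% ± 0.00313. The order of the chains was thus reversed end to end between the muscles. Within soleus the Myh7 share ran from 50.01% to 68.4%, and the library with the most Myh7 (collection C) had the least Myh2 (20.5%). Per kilobase of transcript, Myh7 stood at 2638 CPM per kb in soleus and 0.212 CPM per kb in vastus lateralis, Myh2 at 1443 CPM per kb in soleus and 17.5 CPM per kb in vastus lateralis, Myh1 at 396 CPM per kb in soleus and 139.7 CPM per kb in vastus lateralis and Myh4 at 12.2 CPM per kb in soleus and 17550.2 CPM per kb in vastus lateralis. The heavy chain of vastus lateralis was the more abundant: its Myh4 per kb was above the sum of Myh7, Myh2 and Myh1 in soleus. The study chose its muscles for divergent slow fibre content, so the shares are a description.

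**Figure D2:**
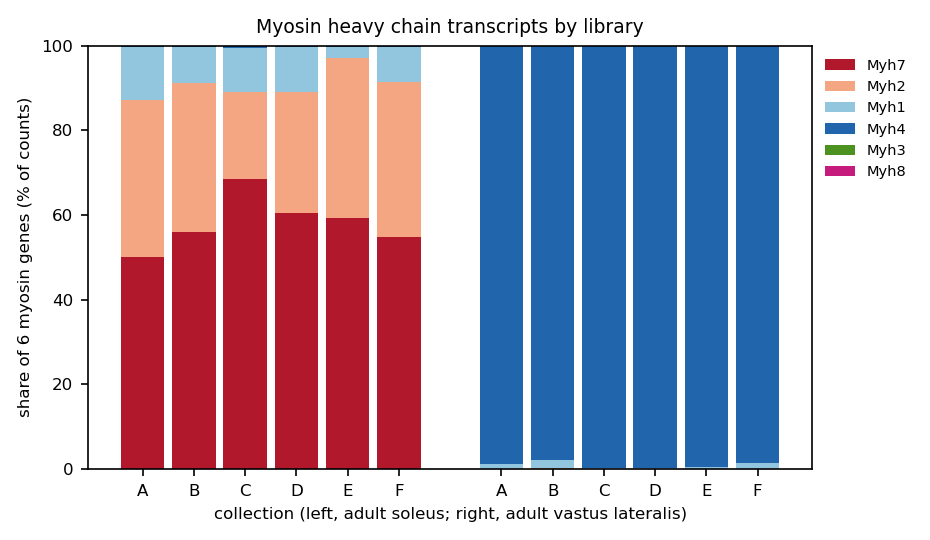
Share of the summed counts of 6 myosin heavy chain genes (percent, vertical axis) in each of the 12 libraries. Myh7 and Myh2 fill most of the 6 soleus bars, with Myh7 at 50.01% to 68.4%, and Myh4 fills 97.9% to 99.8% of the 6 vastus lateralis bars.

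In the slow sarcomere list 15 of 16 genes were higher in soleus and none lower, with a median difference of 11.38 against 0.06 over all genes tested. Myl3, a slow essential light chain, stood at 3054 to 4521 CPM (median 3907) in soleus and 0 to 1.02 CPM (median 0.142) in vastus lateralis, a log2 difference of 13.85 ± 0.52 (adjusted p = 9.38e-12). Tnni1, slow troponin I, stood at 881 to 1886 CPM (median 1298) in soleus and 0 to 1.01 CPM (median 0) in vastus lateralis, a log2 difference of 12.15 ± 0.58 (adjusted p = 1.23e-10). Tpm3, a slow tropomyosin, stood at 3747 to 5632 CPM (median 4514) in soleus and 18.8 to 24.7 CPM (median 19.8) in vastus lateralis, a log2 difference of 7.81 ± 0.16 (adjusted p = 5.58e-14). In each, every soleus library was above every vastus lateralis library. Myl2 (13.28 ± 0.69), Tnnt1 (12.17 ± 0.65), Tnnc1 (12.15 ± 0.43), Myoz2 (11.64 ± 0.51) and Myh7b (11.13 ± 0.35) were among the others. Actn2, an alpha-actinin of slow and fast fibres, and Mybpc1, a myosin binding protein C, had the smallest differences of those called in the list, 4.45 ± 0.31 and 3.36 ± 0.60. Mybpc1 ran from 32.2 to 1103 CPM over the vastus lateralis libraries. Smpx, a small stretch-linked protein of striated muscle, was the member without a call (225 to 324 CPM (median 260.3) in soleus and 166 to 289 CPM (median 248) in vastus lateralis), and its interval of -0.12 to 0.44 lay within 1.5-fold.

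Fast sarcomere genes went the other way, 13 of 16 lower in soleus, 2 higher (Myh2 and Myh1) and Myh13 not called. Myh4, Actn3 and Mybpc2 stood apart from the rest of the list. Actn3, the fast alpha-actinin, stood at 4.16 to 44.04 CPM (median 6.79) in soleus and 10517 to 23659.8 CPM (median 14132) in vastus lateralis, a log2 difference of -9.99 ± 0.70 (adjusted p = 9.28e-09). Tnni2, fast troponin I, stood at 959.5 to 1468 CPM (median 1295) in soleus and 6612 to 10598 CPM (median 6979) in vastus lateralis, a log2 difference of -2.61 ± 0.16 (adjusted p = 1.53e-09). Tnnt3 (-2.84 ± 0.17), Tnnc2 (-2.62 ± 0.15), Tpm1 (-3.34 ± 0.17) and the light chain Mylpf (-3.82 ± 0.16) lay in the same range as Tnni2. Myl1, the fast essential light chain, was low in both muscles and overlapped, at 16.4 to 140.4 CPM (median 106) in soleus and 51.2 to 1193 CPM (median 263) in vastus lateralis (log2 difference -1.98 ± 0.61, adjusted p = 0.011), and without collection C the call was lost (-1.22, adjusted p = 0.0721).

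The first gene of each of 17 pairs took a larger share of the pair's counts in every soleus library than in any vastus lateralis library. That gene was the slow isoform in pairs such as Tnni1 with Tnni2, but not in all. Ckmt2 (with Ckm), Eef1a1 (with Eef1a2) and Rpl3 (with Rpl3l) are not slow isoforms. The share of Tnni1 in troponin I was 51.02% ± 8.50 (SD) in soleus and 0.00435% ± 0.00686 in vastus lateralis, and that of Tnnt1 in troponin T was 54.6% ± 6.68 and 0.00373% ± 0.00634. Atp2a2 made up 64.7% ± 3.38 of the calcium pump counts in soleus and 0.119% ± 0.0326 in vastus lateralis. Myh7 took 99.5% of the counts of Myh7 and Myh4 in soleus, a pair that leaves out Myh2 and Myh1, and Actn2 99.7% of its pair with Actn3. Even the housekeeping pairs differed, with the ubiquitous Eef1a1 at 22.7% ± 1.71 against 9.66% ± 1.73 of the elongation factor 1 alpha pair.

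**Figure D3:**
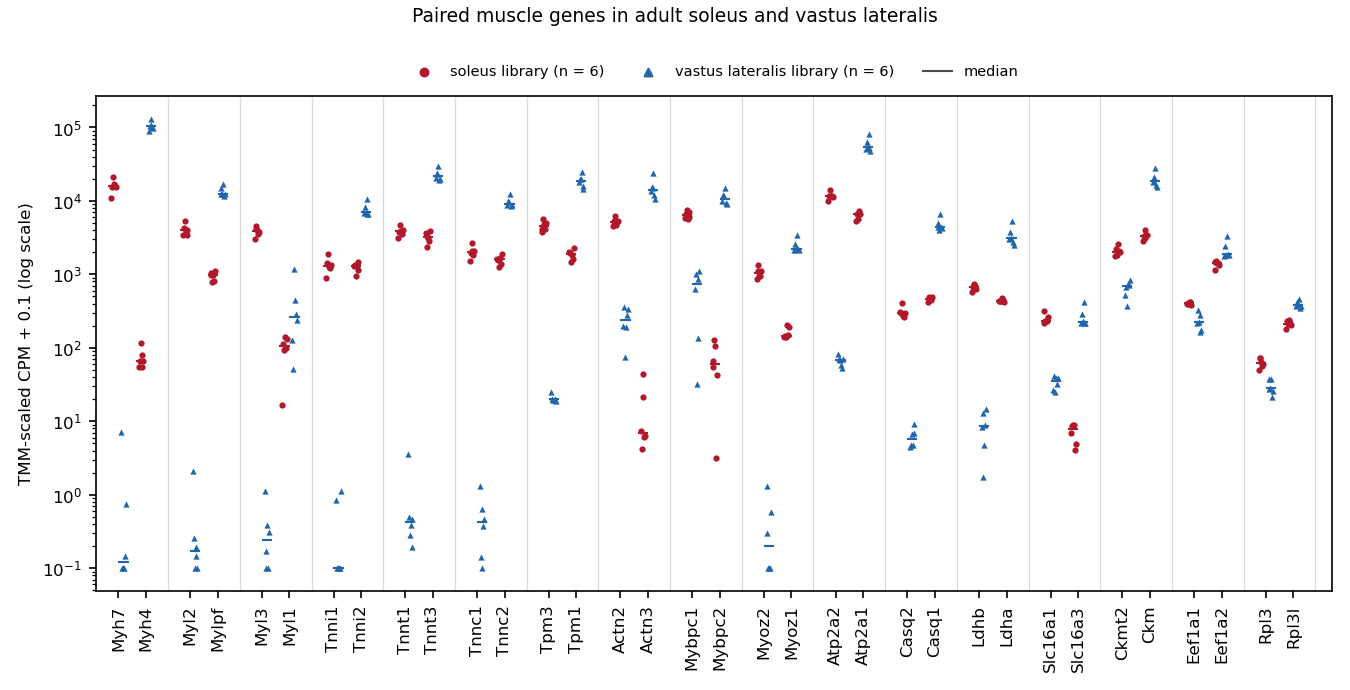
Level of both genes of each of 17 isoform pairs (TMM-scaled CPM plus 0.1, log scale) in the 6 soleus (circles) and 6 vastus lateralis (triangles) libraries, with medians as bars; levels are not per length, so genes are compared only between muscles. In the sarcomere pairs the slow gene of soleus is high where that of vastus lateralis is near 0, as for Tnni1 at a median of 1298 CPM against 0, and the fast gene is lower in soleus.

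Genes of these extremes were picked by their difference, so a shared direction follows from the choice. Promoters of 4 of them are shown, as a description. They are the 250 bases before a RefSeq start site (build GRCm38.p6), 5′ to 3′ on the gene's strand, in lower case, with E-boxes (CANNTG) and MEF2 motifs in capitals, searched on both strands, and no match overlaps another. E-boxes are bound by the myogenic factors and MEF2 motifs by the Mef2 proteins. Positions are chr9:110763428-110763677 (plus strand) for Myl3, chr1:135799171-135799420 (plus) for Tnni1, chr11:67237562-67237811 (plus) for Myh4 and chr15:78206401-78206650 (minus) for Pvalb. Tnni1 and Pvalb have more than 1 RefSeq start, and 1 is shown.

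Myl3: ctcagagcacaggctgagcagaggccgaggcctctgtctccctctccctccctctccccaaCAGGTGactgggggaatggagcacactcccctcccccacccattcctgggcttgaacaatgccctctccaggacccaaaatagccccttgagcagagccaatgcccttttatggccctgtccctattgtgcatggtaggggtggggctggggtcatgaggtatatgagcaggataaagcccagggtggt
Tnni1: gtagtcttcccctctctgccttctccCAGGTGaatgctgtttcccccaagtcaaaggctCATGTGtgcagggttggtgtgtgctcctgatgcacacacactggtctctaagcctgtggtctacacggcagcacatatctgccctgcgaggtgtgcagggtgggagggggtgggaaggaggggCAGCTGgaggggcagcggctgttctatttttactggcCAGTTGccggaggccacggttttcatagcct
Myh4: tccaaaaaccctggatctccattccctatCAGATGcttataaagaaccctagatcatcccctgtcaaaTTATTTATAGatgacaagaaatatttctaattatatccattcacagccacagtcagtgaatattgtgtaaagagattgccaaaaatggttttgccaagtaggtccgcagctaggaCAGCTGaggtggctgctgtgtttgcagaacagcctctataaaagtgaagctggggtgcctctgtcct
Pvalb: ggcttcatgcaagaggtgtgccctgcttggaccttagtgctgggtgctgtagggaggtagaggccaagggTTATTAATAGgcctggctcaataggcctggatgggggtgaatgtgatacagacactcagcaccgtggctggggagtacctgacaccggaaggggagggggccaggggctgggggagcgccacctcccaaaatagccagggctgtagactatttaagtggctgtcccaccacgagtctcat

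An E-box was found in 18 of 18 windows of the 12 highest genes, of which Sv2b alone gave 4, in 6 of 11 windows (54.55%) of 9 of the 12 lowest genes (all but Actn3, Cdh4 and Ighm), 58.53% of the windows of all genes tested and 66.22% of all promoters in the RefSeq table. A MEF2 motif was found in 5.556%, 18.18%, 1.815% and 2.919% of these. The windows of Myh7 overlap each other, as do those of Tnni1, so the windows are not independent. A match is a description of the letters in these windows, and a window without a match says nothing of the factor.

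Sarcomere parts that both fibre types use gave smaller and mixed differences: 8 of 25 higher, 11 lower and 6 not called (14 higher and 8 lower with total counts alone). Lmod2, a thin filament leiomodin, was far above the rest at 867 to 1545 CPM (median 1108) in soleus and 1.42 to 26.8 CPM (median 3.92) in vastus lateralis, a log2 difference of 7.18 ± 0.67 (adjusted p = 2.72e-07). Tpm2, the beta tropomyosin, was higher by 2.69 ± 0.47 and the chaperone Cryab by 1.76 ± 0.21. Tmod1, a thin filament cap, was lower, at -2.79 ± 0.08, and Acta1, skeletal actin, at -0.98 ± 0.20. Titin was lower, at 24046 to 37196 CPM (median 27772) in soleus and 29929 to 55090.4 CPM (median 42589) in vastus lateralis, a log2 difference of -0.57 ± 0.19 (adjusted p = 0.0166), with overlap, and its call was lost without collection D (-0.45) or E (-0.54), with total counts alone (-0.07) and with all 24 adult libraries (adjusted p = 0.143).

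Calcium handling divided 7 higher against 24 lower of 32 genes (7 and 22 with total counts alone). Atp2a2, the slow calcium pump, stood at 9970.5 to 13914 CPM (median 11602) in soleus and 52.3 to 81.9 CPM (median 68.7) in vastus lateralis, a log2 difference of 7.45 ± 0.18 (adjusted p = 8.23e-14). Sln, a small inhibitor of the pump, stood at 23.2 to 36.99 CPM (median 28.99) in soleus and 0 to 0.318 CPM (median 0.118) in vastus lateralis, a log2 difference of 7.69 ± 0.37 (adjusted p = 1.19e-10). Casq2, the slow calsequestrin, was higher by 5.66 ± 0.19, and Mcu, the mitochondrial calcium uniporter, by 0.65 ± 0.09. Atp2a1 stood at 5279 to 7203 CPM (median 6639.5) in soleus and 48202 to 81489.5 CPM (median 54368) in vastus lateralis, a log2 difference of -3.205 ± 0.19 (adjusted p = 1.37e-09), and Pvalb, parvalbumin, the calcium buffer of fast fibres, at 5.65 to 93.3 CPM (median 34.4) in soleus and 11164 to 13779 CPM (median 12553) in vastus lateralis, a log2 difference of -8.26 ± 0.55 (adjusted p = 5.78e-09). No library of one muscle reached the other for either gene. The release channel Ryr1 (-1.26 ± 0.15), its voltage sensor Cacna1s (-1.02 ± 0.11), Casq1 (-3.38 ± 0.14), the junctophilin Jph2 (-2.32 ± 0.13) and the kinase Camk2a (-3.49 ± 0.11) were lower too. All 3 calmodulin genes, which encode the same protein, were lower, Calm3 most (-2.65 ± 0.09).

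Of 20 excitability genes, 8 were higher and 11 lower (9 and 8 with total counts alone). The beta subunits of the sodium pump went opposite ways: Atp1b1 stood at 425 to 595 CPM (median 483) in soleus and 4.27 to 45.8 CPM (median 25.7) in vastus lateralis, a log2 difference of 4.27 ± 0.44 (adjusted p = 8.18e-07) and Atp1b2 at 15.3 to 20.5 CPM (median 18.8) in soleus and 516 to 809 CPM (median 606) in vastus lateralis, a log2 difference of -5.06 ± 0.13 (adjusted p = 1.95e-13). Neither gene overlapped. The sodium channel Scn4a (-1.35 ± 0.10), the chloride channel Clcn1 (-1.38 ± 0.11) and the potassium channel Kcnc4 (-4.703 ± 0.20) were lower, while the inward rectifier Kcnj2 was higher (1.74 ± 0.17).

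In glycolysis and glycogen use, 22 of 35 genes were lower in soleus and 9 higher, with 4 not called (20 and 12 with total counts alone). Pfkfb3, a regulator of phosphofructokinase, stood at 12.7 to 24.3 CPM (median 17.9) in soleus and 426 to 1556 CPM (median 896) in vastus lateralis, a log2 difference of -5.66 ± 0.37 (adjusted p = 4.57e-09). Gpd1, which links glycolysis to glycerol phosphate, stood at 36.2 to 43.8 CPM (median 41.6) in soleus and 961 to 1465 CPM (median 1045) in vastus lateralis, a log2 difference of -4.75 ± 0.12 (adjusted p = 2.27e-13). Ldha, the muscle lactate dehydrogenase, stood at 426 to 475 CPM (median 435) in soleus and 2544 to 5264 CPM (median 3079) in vastus lateralis, a log2 difference of -2.96 ± 0.17 (adjusted p = 7.61e-10). No library overlapped in any of these 3. Aldoa (-2.89 ± 0.19), Gapdh (-2.45 ± 0.20), Pkm (-2.11 ± 0.16) and the glycogen phosphorylase Pygm (-3.02 ± 0.17) were lower in the same way, as was the lactate exporter Slc16a3 (-5.26 ± 0.25). Among the 9 higher were the lactate dehydrogenase subunit Ldhb (6.299 ± 0.39), the monocarboxylate transporter Slc16a1 (2.89 ± 0.14) and the hexokinase Hk2 (0.86 ± 0.20). Glycogen synthase Gys1 was not called, but was called higher with the collection as a replicate block (0.27, adjusted p = 0.044), with upper-quartile scaling (0.31), with total counts alone (0.77) and without collection D (0.34) or its vastus lateralis library only (0.34). The glucose transporter Slc2a4 was not called and lay within 1.5-fold (medians of 204 and 230.1 CPM in soleus and vastus lateralis for Slc2a4).

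Phosphate buffering showed 6 of 15 higher and 7 lower (8 and 4 with total counts alone). Ckm, muscle creatine kinase, stood at 2844 to 4045 CPM (median 3347) in soleus and 15438 to 28412 CPM (median 18435) in vastus lateralis, a log2 difference of -2.56 ± 0.17 (adjusted p = 6.55e-09), while mitochondrial Ckmt2 was higher by 1.705 ± 0.17. Ampd1, the fast AMP deaminase, was lower (-2.04 ± 0.11) and Ampd3 higher (3.03 ± 0.14).

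Fatty acid genes were nearly all higher, 29 of 31, with Ucp3 lower (-1.36 ± 0.40, and not called with total counts alone) and Acadl not called, at a median difference of 1.28 against 0.06 over all genes. Fabp3, a cytosolic fatty acid carrier, stood at 569.9 to 1096 CPM (median 861) in soleus and 52.7 to 107 CPM (median 93.7) in vastus lateralis, a log2 difference of 3.33 ± 0.20 (adjusted p = 1.45e-09). Lpl, the lipase of capillary walls, stood at 2070.4 to 2394 CPM (median 2221) in soleus and 121 to 212 CPM (median 164) in vastus lateralis, a log2 difference of 3.74 ± 0.14 (adjusted p = 7.65e-12), and the fatty acid transporter Cd36 at 758 to 1132 CPM (median 813) in soleus and 92.5 to 139.7 CPM (median 111) in vastus lateralis, a log2 difference of 2.95 ± 0.13 (adjusted p = 6.51e-11). None of these 3 overlapped, and the oxidation enzymes Hadha (1.55 ± 0.10) and Acadvl (1.38 ± 0.10) were higher too. Acadl, long-chain acyl-CoA dehydrogenase, was near its floor in most vastus lateralis libraries but 8.34 CPM in that of collection D, and its value of -0.18 ± 0.84 became 1.97 (adjusted p = 0.00111) without that library.

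The respiratory chain was close to level by contrast. Of 40 oxidative phosphorylation genes, 13 were higher, 3 lower and 24 not called (36 and 0 with total counts alone, and 3 called in all with all 24 adult libraries in the fit), and 32 had intervals within 1.5-fold. Atp5f1b, the beta subunit of ATP synthase, stood at 2366 to 2907 CPM (median 2797) in soleus and 2167 to 2996 CPM (median 2368) in vastus lateralis (log2 difference 0.16 ± 0.11, interval -0.07 to 0.39), with the muscles overlapping. Cox4i1 lay at medians of 518 and 431 CPM and Cycs, cytochrome c, at medians of 261 and 277 CPM in soleus and vastus lateralis. Cox4i1 was not called, but was called higher in 7 of the alternatives, by 0.22 (voom) to 0.72 (total counts alone). Sdhb was higher by 0.68 ± 0.11, and Ndufs3 of complex I was lower, at -0.43 ± 0.10 but at 0.07 with total counts alone, and not called with all 24 adult libraries (adjusted p = 0.0606). In the second comparison, vastus intermedius over gastrocnemius, 38 of these genes were higher and 0 lower, and the 2 comparisons share no library. The difference between them was called for 18 of the 40, of which 18 were negative. In the tricarboxylic acid cycle 11 of 22 were higher and 3 lower (19 and 1 with total counts alone, and 8 called in all with all 24 adult libraries). The share called in that list, 63.6%, is near the 61.2% over all genes. Idh2, mitochondrial NADP-linked isocitrate dehydrogenase, was the extreme at 1207 to 1713 CPM (median 1471) in soleus and 63.04 to 79.8 CPM (median 70.3) in vastus lateralis, a log2 difference of 4.35 ± 0.12 (adjusted p = 2.81e-13). The citrate synthase transcript Cs was not called (864 to 1007 CPM (median 946) in soleus and 887 to 1148 CPM (median 1011) in vastus lateralis, interval -0.27 to 0.10). With total counts alone Cs was called higher (0.42). Enzyme amounts and mitochondrial content were not measured.

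Energy regulators had 15 of 28 higher and 6 lower. Mb, myoglobin, stood at 5437 to 7099 CPM (median 6209) in soleus and 45.02 to 475 CPM (median 268) in vastus lateralis, a log2 difference of 4.52 ± 0.44 (adjusted p = 3.58e-07). The nuclear receptors Esrrb (5.64 ± 0.36), Esrrg (4.94 ± 0.36) and Ppara (2.904 ± 0.22) were higher, and the subunits Prkag3 (-5.11 ± 0.25), Prkab2 (-3.52 ± 0.13) and Prkaa2 (-1.34 ± 0.09) of AMP kinase lower. Ppargc1a, a coactivator of mitochondrial genes, stood at 58.96 to 1212 CPM (median 99.2) in soleus and 47.5 to 63.8 CPM (median 53.1) in vastus lateralis (log2 difference 2.497 ± 0.64, adjusted p = 0.00339), with overlap. Soleus of collection A alone was at 1212 CPM.

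Of 44 fibre type regulators, 19 were higher, 19 lower and 6 not called (24 and 14 with total counts alone). Prox1, a homeobox factor of slow fibres, stood at 25.6 to 50.3 CPM (median 30.9) in soleus and 0.355 to 1.61 CPM (median 0.872) in vastus lateralis, a log2 difference of 5.23 ± 0.30 (adjusted p = 9.32e-10). Sox6, a repressor of slow genes, stood at 46.6 to 66.1 CPM (median 56.8) in soleus and 263 to 351 CPM (median 286) in vastus lateralis, a log2 difference of -2.38 ± 0.11 (adjusted p = 5.34e-11). Tbx15, a T-box factor of fast fibres, stood at 95.8 to 135 CPM (median 111) in soleus and 428 to 592 CPM (median 511) in vastus lateralis, a log2 difference of -2.16 ± 0.11 (adjusted p = 3.21e-10). These 3 did not overlap. The calcineurin inhibitor gene Rcan2 was higher (2.797 ± 0.20), as was Vgll2 (3.67 ± 0.36), while the large Maf factors Maf and Mafa (-3.54 ± 0.12 and -4.45 ± 0.28), Eya4 (-3.18 ± 0.15), Myod1 (-2.82 ± 0.21) and the calcineurin subunits Ppp3ca and Ppp3cb (-1.51 ± 0.08 and -1.79 ± 0.12) were lower. Six2, a homeobox factor, stood at 0.201 to 0.569 CPM (median 0.412) in soleus and 18.6 to 81.3 CPM (median 59.9) in vastus lateralis, a log2 difference of -7.06 ± 0.38 (adjusted p = 4.58e-10). Mef2c, Mef2d, Hdac4 and Nfatc1 were not called and lay within 1.5-fold, but Nfatc1 was called lower without collection A (-0.37, adjusted p = 0.0176) or its soleus library only (-0.36). Mef2c, Mef2d and Nfatc1 are transcription factors that calcium signals act on, and Hdac4 represses Mef2 targets. Mhrt, an antisense transcript at the Myh7 locus, had no count in vastus lateralis, and without strand its reads cannot be told apart from those of Myh7.

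Growth genes were 10 higher and 12 lower of 31 (15 and 9 with total counts alone). Mstn, myostatin, the secreted inhibitor of muscle growth, stood at 0.117 to 1.83 CPM (median 1.08) in soleus and 114 to 184 CPM (median 157) in vastus lateralis, a log2 difference of -7.11 ± 0.32 (adjusted p = 5.49e-11). Mss51, a muscle gene of mitochondrial metabolism, was lower, at -7.099 ± 0.33. The muscles did not overlap for either gene. Of the myostatin receptors, Acvr2a (-1.86 ± 0.14) and Acvr2b (-1.14 ± 0.22) were lower. Mtor, Trim63 and Fbxo32 were not called, at medians of 165 and 205 CPM in soleus and vastus lateralis for the ubiquitin ligase Trim63, which was called lower without collection A (-0.35, adjusted p = 0.0492). Akt1 was higher (1.12 ± 0.08) and Akt2 lower (-1.02 ± 0.09). Of 10 polyamine genes, of synthesis and of breakdown, 7 were lower and Sat1 was higher (5 and 3 with total counts alone). Amd1, S-adenosylmethionine decarboxylase, stood at 38.5 to 65.1 CPM (median 49.5) in soleus and 981 to 1586 CPM (median 1249.7) in vastus lateralis, a log2 difference of -4.63 ± 0.16 (adjusted p = 4.97e-12), and Smox, spermine oxidase, was lower, at -5.68 ± 0.25. Amd2 is a near copy of Amd1 and can share its reads.

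Small heat shock and oxidant genes were 9 higher and 14 lower of 25 (14 and 6 with total counts alone). Hspb7, a small heat shock protein of muscle, stood at 1337 to 2400.2 CPM (median 1708) in soleus and 23.5 to 84.9 CPM (median 34.5) in vastus lateralis, a log2 difference of 5.38 ± 0.31 (adjusted p = 1.17e-09). Cat, catalase, was higher by 2.35 ± 0.10, and Gpx3 lower, at -1.65 ± 0.11. Membrane and basement membrane genes were 12 higher and 8 lower of 26 (18 and 1 with total counts alone, and 13 called in all with all 24 adult libraries). Laminin Lama2 was higher by 1.01 ± 0.13, Nos1, the muscle nitric oxide synthase, was lower, at -3.35 ± 0.16, and Dmd and Dag1, dystrophin and dystroglycan, were not called and lay within 1.5-fold.

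At the neuromuscular junction 9 of 16 genes were higher and 4 lower. The adult receptor subunit Chrne was lower (-2.09 ± 0.16) while the fetal one, Chrng, was higher (3.28 ± 0.54), and Chrnd stood at 19.5 to 24.7 CPM (median 22.8) in soleus and 0.758 to 4.24 CPM (median 2.27) in vastus lateralis, a log2 difference of 3.16 ± 0.28 (adjusted p = 1.70e-07). Ache, acetylcholinesterase, was lower (-2.31 ± 0.16) and its tail gene Colq higher (1.89 ± 0.15). Among developmental isoforms, 9 of 11 were higher. Myh3, the embryonic heavy chain, stood at 7.15 to 30.7 CPM (median 11.3) in soleus and 0.415 to 9.54 CPM (median 0.809) in vastus lateralis, a log2 difference of 2.83 ± 0.68 (adjusted p = 0.00215), with overlap, and the call was lost with all 24 adult libraries in the fit (2.801, adjusted p = 0.105). Actc1, cardiac actin, was lower, at 12.6 to 21.96 CPM (median 20.1) in soleus and 234 to 2672 CPM (median 440.0) in vastus lateralis, a log2 difference of -5.39 ± 0.57 (adjusted p = 1.05e-06). The vastus lateralis library of collection D held the highest Actc1, and without it the difference was -4.43. Of 17 clock genes, 3 were higher and 4 lower and 10 were not called (8 and 1 with total counts alone).

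Limb patterning genes were set against the second comparison. In soleus over vastus lateralis 12 of 31 tested genes were higher and 6 lower, a share called of 58.1% that is near the 61.2% over all genes. The difference between the 2 comparisons was called positive for 12 of the 31 and negative for 6, beside 19.1% called in either direction over all genes. Tbx5 stood at 0 to 0.305 CPM (median 0.0984) in soleus and 0.848 to 3.24 CPM (median 1.62) in vastus lateralis, a log2 difference of -3.71 ± 0.55 (adjusted p = 3.03e-05), and in vastus intermedius over gastrocnemius it was higher (4.24 ± 0.48, adjusted p = 8.53e-05). The difference between the comparisons was -7.95 ± 0.77 (adjusted p = 2.37e-07). Hoxc8 likewise went from -1.36 ± 0.21 to 1.79 ± 0.19. Hotair, a noncoding RNA of the HoxC cluster, was 4.52 ± 0.42 and -1.46 ± 0.32. Tbx5 and Hoxc8 were higher in the thigh muscle, and Hotair in the shank muscle, in both comparisons. Hoxd10 was not called in soleus over vastus lateralis (-0.62 ± 0.46) but was lower in vastus intermedius (-5.24 ± 0.51). Sim1, another patterning factor, was higher in both, at 5.72 ± 0.52 and 4.61 ± 0.76.

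Over all genes, 5825 of 13473 were called for vastus intermedius over gastrocnemius (43.2%), and 4703 genes were called with the same sign in both comparisons, 57.3% of the soleus calls and 81.3% of the vastus intermedius calls. Opposite signs were called for 83 genes. The difference between the comparisons was called for 2736 of 14304 genes (19.1%), and for 1477 without collection E and 1679 without F. Of the 16 slow sarcomere genes, 14 had a difference called positive and 0 negative, and of the 16 fast ones 1 and 12. In glycolysis and glycogen 3 of 35 were positive and 20 negative, so the soleus comparison was further from 0 in most of these genes. Myl3 stood at 13.85 ± 0.52 against 3.31 ± 0.69 (difference 10.54 ± 1.03, adjusted p = 2.69e-07), Myh4 at -10.496 ± 0.32 against -2.68 ± 0.69 and Atp2a2 at 7.45 ± 0.18 against 2.898 ± 0.57. Myh1 was an exception, at 1.502 ± 0.56 and 1.85 ± 0.49 (difference -0.35 ± 0.79, adjusted p = 0.806). The collection B library labelled adult vastus intermedius was left out of these values. Across genes (log2 of CPM plus 1), it correlated by 0.997 with the mean of E18.5 vastus intermedius and by 0.915 with that of the other adult libraries of its muscle. Each of those others correlated by 0.9897 to 0.992 with the mean of the remaining adult libraries, a mean that included the collection B library. The collection B library held embryonic Myh3 at 11381 CPM and perinatal Myh8 at 19868 CPM, against at most 18.9 and 5.74 CPM in the other 5. Those 5 were uneven in Myh4, from 885 CPM (collection C) to 37857 CPM (collection E), and the second comparison rests on them. With the collection B library as well, 3624 and 1118 genes were called for the second comparison and for the difference.

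**Figure D4:**
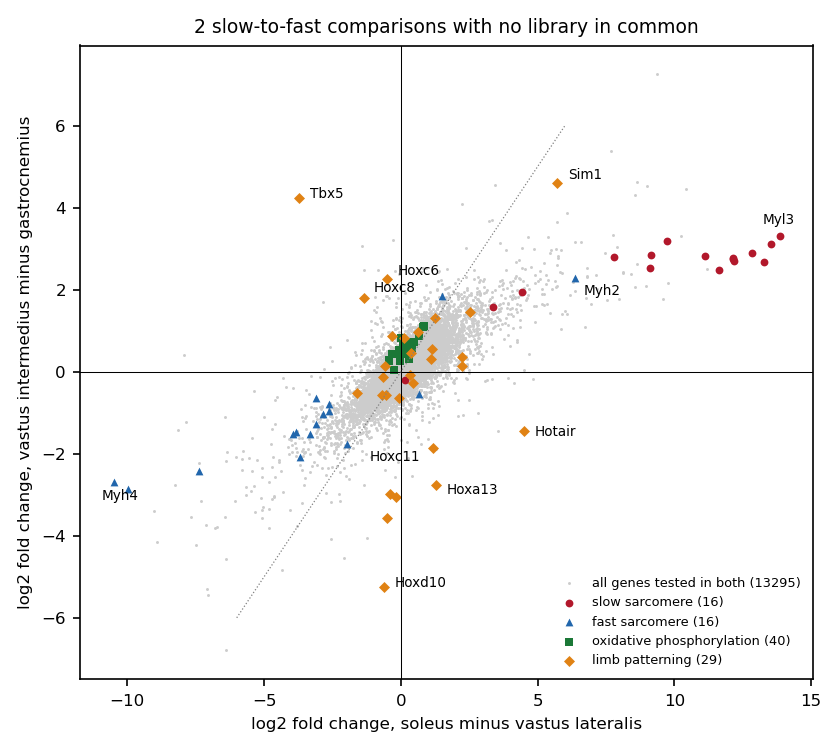
Log2 difference of soleus over vastus lateralis (horizontal axis) against that of vastus intermedius over gastrocnemius (vertical axis) for the 13295 genes tested in both, with lists coloured and a dotted line where both are equal. Slow sarcomere genes lie far right and moderately high, as Myl3 at 13.85 and 3.31, while Tbx5 lies left and high at -3.71 and 4.24.

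Genes close to level were defined by their interval: a 95% confidence interval within 1.5-fold either way. Such a bounded gene can still be called, with a difference below 1.5-fold. This held for 3591 genes (26.3%), 2703 not called and 888 called, and 2595 genes were neither called nor bounded. Among those with a mean of at least 10 CPM, 2910 of 7530 were bounded. Among the most abundant were ND4, a mitochondrially encoded subunit of complex I (5016 to 9629.6 CPM (median 6052) in soleus and 4794 to 7647 CPM (median 6488) in vastus lateralis; interval -0.28 to 0.52), Atp5f1b and Slc25a4, the muscle adenine nucleotide carrier. Also bounded were Zfp106 (-0.30 to 0.22), Ankrd23 (-0.26 to 0.30) and Plec, a cytoskeletal linker (-0.16 to 0.32). A bound depends on scaling: with total counts alone 2872 genes were bounded. Smpx, Atp5f1b, ND4, Ankrd23, Plec, Rps27a, B2m, Vps29, Mef2c and Dmd were then called higher, by 0.49 to 0.67. Mtor, not called in the main fit, was then called higher as well (0.52). So were genes whose direction turned, such as Zfp106 (0.44), Slc25a4 (0.31), Actb (0.43) and Cs (0.42).

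By list, 30 of 40 cytosolic ribosome genes were bounded, 1 was higher (Rpl3, 1.09 ± 0.14) and 14 lower (27 and 1 with total counts alone). The muscle-specific Rpl3l was lower (-0.89 ± 0.09), so the Rpl3 pair went in opposite directions. Rps27a stood at 127 to 164 CPM (median 142) in soleus and 115 to 157 CPM (median 135) in vastus lateralis (interval -0.10 to 0.27), with overlap. Proteasome genes were mostly slightly lower, 24 of 25 called lower and none higher (6 lower and 3 higher with total counts alone), with Psmd1 furthest from 0 (-0.96 ± 0.10). The splicing and transcription list had 12 higher and 10 lower of 30 (19 and 1 with total counts alone), and 14 were bounded. Of 28 commonly used reference genes, 12 were bounded, 7 were higher and 13 lower (14 and 6 with total counts alone). Gapdh differed by -2.45 ± 0.20 and Pgk1 by -2.01 ± 0.13, both glycolytic. Actb stood at 322 to 402 CPM (median 354) in soleus and 327 to 416 CPM (median 376) in vastus lateralis, a log2 difference of -0.06 ± 0.09 (adjusted p = 0.545), and B2m (-0.15 to 0.30), Chmp2a (-0.21 to 0.12) and Vps29 (-0.08 to 0.32) had intervals within 1.5-fold.

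**Figure D5:**
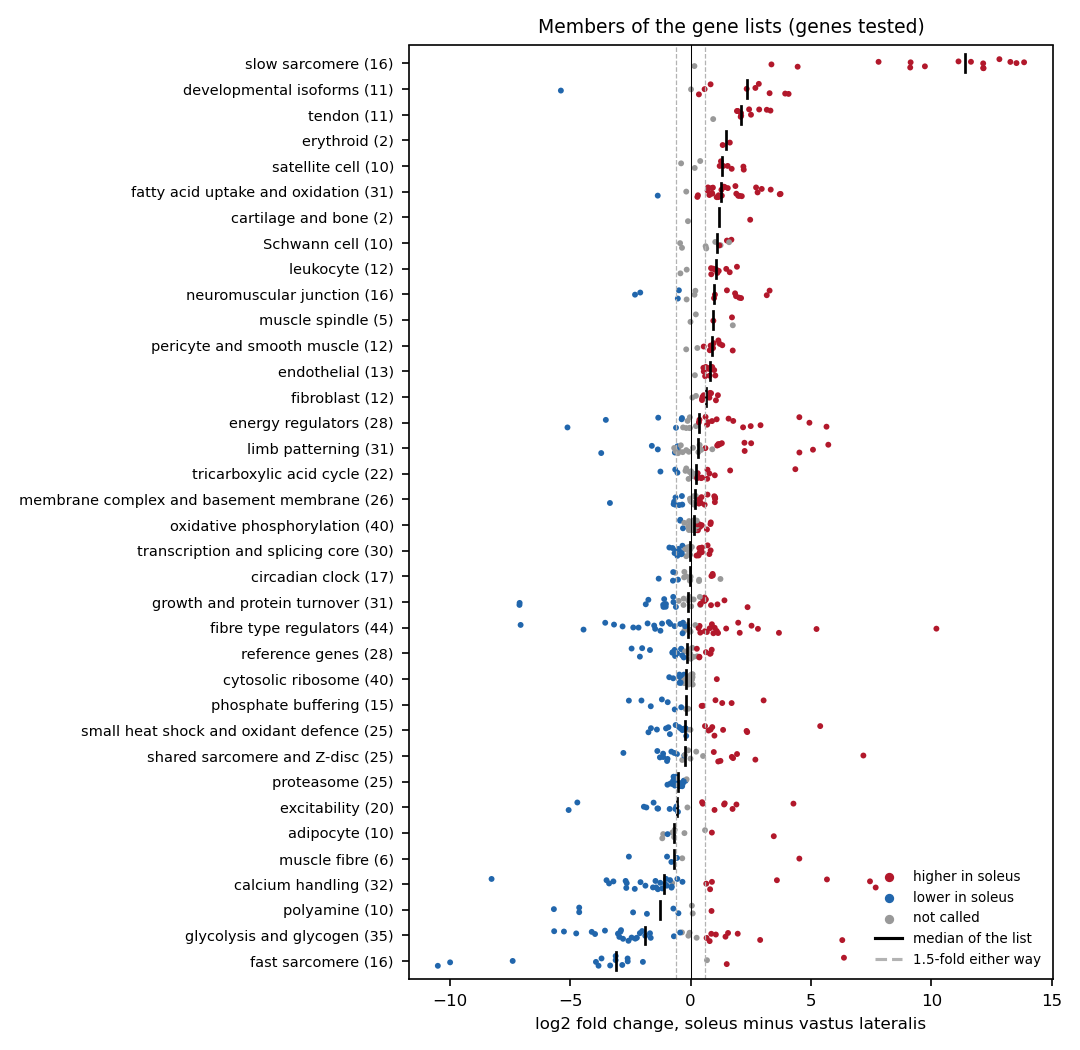
Log2 difference of soleus over vastus lateralis (horizontal axis) for the members of each gene list, 1 point per gene, coloured by call, with the list median as a bar. Slow sarcomere and fatty acid lists lie right of 0, the fast sarcomere and glycolysis lists mostly left, and the ribosome and oxidative phosphorylation lists close to 0.

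Markers of several other cell types were higher in soleus, but those of adipocytes and Schwann cells were mostly not called. Endothelial markers were higher in 12 of 13 (Cldn5 had no count), with summed levels of 917 to 1077 CPM in soleus and 443 to 761 CPM in vastus lateralis. Pericyte and smooth muscle markers were higher in 10 of 12 (411 to 540.1 CPM in soleus and 179.6 to 435 CPM in vastus lateralis) and fibroblast markers in 10 of 12 (5 with all 24 adult libraries in the fit; 2276 to 2874 CPM in soleus and 962 to 2217 CPM in vastus lateralis), where the fibroblast sums did not overlap and the pericyte sums did. Leukocyte markers were higher in 10 of 12 (166 to 265 CPM in soleus and 61.1 to 170.1 CPM in vastus lateralis) and satellite cell markers in 7 of 10 (157 to 277 CPM in soleus and 76.4 to 103 CPM in vastus lateralis). Tendon markers were called higher in 10 of 11 (6 with voom, 7 with all 24 adult libraries in the fit), but only 1 of these did not overlap (47.8 to 599.5 CPM in soleus and 16.6 to 175 CPM in vastus lateralis). Of 10 adipocyte markers, 2 were higher, 1 lower and 7 not called (297 to 428 CPM in soleus and 141 to 619.8 CPM in vastus lateralis). Of 5 erythroid markers only 2 were tested, and both were higher, 1 of them without overlap (57.5 to 137 CPM in soleus and 11.3 to 52.5 CPM in vastus lateralis). Muscle spindle markers were higher in 2 of 5, and cartilage and bone markers in 1 of 2 tested. Of the 6 muscle fibre markers, 1 was higher (Mb, 4.52), 4 were lower and 1 was not called. They summed to 71015 to 89526 CPM in soleus and 115769 to 180639 CPM in vastus lateralis. That sum includes genes that differ between fibre types, such as Ckm (-2.56), so it is not a measure of fibre content alone. The part of these cells in the results above, including Lpl, Cd36 and the basement membrane genes, was not tested. Schwann cell sums were 118 to 521 CPM in soleus and 63.8 to 133 CPM in vastus lateralis, and soleus of collection A held the highest. Of 10 Schwann cell markers, 3 were higher and 7 not called, and without collection A 2 were higher and 2 lower. The share called in the Schwann cell and adipocyte lists, 30% in each, was below the 61.2% over all genes.

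Some genes were found in a single muscle. No count was found in any vastus lateralis library for 21 called genes and in any soleus library for 2. Chosen after their values were seen, Myl10, a myosin regulatory light chain gene, was at least 58.99-fold higher in soleus against a floor of 3 counts per library, Wnt16, a secreted Wnt ligand, at least 37.01-fold higher, and Themis3 and Ppm1n were at least 17.5-fold and 14.4-fold lower.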

How the data were processed

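Whole-muscle mRNA was measured in 6 adult soleus and 6 adult vastus lateralis libraries of male FVB/NJ mice. The deposited values are the authors' raw read counts per gene, not normalized. Build mm10 and, as tools, STAR 2.7.11, Trimmomatic 0.39.0, DESeq2 1.44.0, FastQC 0.11.5 and Subread 2.0.6 (featureCounts) are listed in the submitters' processing notes. Neither the annotation nor the strand setting of the counting is given in the sources used here. Overlapping and antisense genes thus cannot be told apart. Symbols came from the deposited comparison tables for 18780 genes and RefSeq GRCm38.p6 for 6501, and 1898 of the 27179 genes had none. Promoter sequences are from RefSeq.

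Counts were tested with edgeR 4.0.16 in R 4.3.3 (quasi-likelihood F test, TMM, filterByExpr, no block), with Benjamini-Hochberg adjustment at 0.05. Each standard error is the absolute log2 difference over the root of its F statistic. The test was checked on simulated counts. Alternatives were DESeq2 1.42.0, limma 3.58.1 (voom), other scalings, filters and fits, and leaving out each collection. Floors (3 counts, 0.0926 to 0.201 CPM) cover counting error only. Libraries of a group differed by a chi-square of at least 12.01 per degree of freedom, so none was counted as a duplicate. The 12 libraries come from 6 collections on 5 dates. The columns carry no animal number, so pairing rests on the date tag.

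Members and lists were chosen with earlier results of these data known. The text names, by rule, up to 6 called members of each list by size of difference and up to 3 uncalled ones by CPM, the 12 highest and 12 lowest called genes of at least 10 CPM, the 10 largest changes in CPM and in the difference between comparisons in each direction, the 15 most abundant bounded genes, bounded list members, called limb patterning genes and both genes of each pair. Named outside that rule, after their values were seen, were Myh1, Mcu, Ryr1, Cacna1s, Jph2, Calm3, Scn4a, Clcn1, Kcnj2, Pkm, Pygm, Hk2, Ucp3, Hadha, Acadvl, Prkaa2, Ppargc1a, Sox6, Tbx15, Rcan2, Eya4, Myod1, Ppp3ca, Ppp3cb, Acvr2b, Akt1, Akt2, Colq, Hoxd10, Myl10, Wnt16, Ppm1n, Fbxo32 and Vegfa. Some genes that the rule covers are not reported here. The collection B library labelled adult vastus intermedius was left out of the second comparison, because its profile resembled that of E18.5 muscle.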

Additional observations from a re-analysis of the deposited data

Results flagged for a closer look

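Among the 6 libraries of a muscle, single libraries stood far from the others in 13 measures. For normally distributed values, chance alone does this in about 1 in 20 groups. That rate does not carry over to levels near 0, such as Myh7 and Myl3 in vastus lateralis. The number of measures looked at is not given, so the 13 cannot be set against it. The vastus lateralis library of collection A was the highest of its group in Myh7 (7.01 CPM, next 0.636), in the Myh7 share (0.00777%) and in Myl3 (1.02 CPM). Soleus of collection E was lowest in Myh1 (672 CPM, next 2318). Soleus of collection C was highest in Prox1 (50.3 CPM) and in the sum of muscle fibre markers (89526 CPM), and soleus of collection D in Ldha (474.8 CPM) and in erythroid markers (137 CPM). Vastus lateralis of collection D was highest in Gpd1 (1465 CPM) and in muscle fibre markers (180639 CPM). The sum of Schwann cell markers was highest in soleus of collection A (521 CPM, next 143) and in vastus lateralis of collection F (133 CPM), which was also highest in the Myh3 share (0.00957%).

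The difference between soleus over vastus lateralis and vastus intermedius over gastrocnemius (log2) passed the test (edgeR, adjusted p below 0.05) for 16 of the genes followed library by library. It was positive for Myh7 (10.42), Myl3 (10.54), Tnni1 (9.38), Atp2a2 (4.55), Myh2 (4.09) and Prox1 (3.33). It was negative for Tbx5 (-7.95), Myh4 (-7.81), Actn3 (-7.12), Pvalb (-5.50), Mstn (-3.36), Gpd1 (-2.98), Atp2a1 (-1.997), Tnni2 (-1.82), Ldha (-1.81) and Sox6 (-1.49). The direction within each comparison was the same for all of these but Tbx5. Slow myosin content chose the muscles, so the sign of the Myh7 difference follows from the choice.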

How the results depend on the processing

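Of the 164 named genes tested, 132 kept their direction and side of the threshold under all alternatives run. The count of called genes (8345) was 8343 with DESeq2 size factors, 8328 with upper-quartile scaling, 9494 with total counts, 8510 with voom, 9128 with DESeq2, 8865 without a filter, 7943 with a mean of at least 1 CPM, 7513 with all 24 adult libraries, and 7557 to 8374 with a collection or library left out. Against a 2-fold change 1662 genes were called. Bounded genes were 3007 to 3809 with a collection or library left out, 7335 with a bound of 2-fold and 912 with a tighter bound. With the collection B library labelled adult vastus intermedius, 3624 genes were called for vastus intermedius over gastrocnemius and 1118 for the difference between comparisons, which ran from 1477 (without E) and 1679 (without F) to 2745 with a collection left out, against 2736. The second comparison ran from 4387 to 5808 that way, against 5825. With total counts the direction turned for Slc2a4 0.42, Cycs 0.43, Ndufs3 0.074, Cs 0.42, Zfp106 0.44, Actb 0.43, Chmp2a 0.45, Mef2d 0.33, Hdac4 0.43, Dag1 0.502 and Slc25a4 0.31. All of these but Ndufs3 were then called higher. The cause was not tested, and the median gene stands at 0.55 on that scale against 0.06. The direction of Acadl turned with voom (1.64), without collection D (1.88) and without its vastus lateralis library only (1.97), running from -0.57 to 1.88 with a collection left out, and that library alone had 8.34 CPM. With the collection as a replicate block 8268 genes were called and 3541 bounded, 4925 for the second comparison and 3005 for the difference. Deviations of the libraries of a collection correlated by -0.0175 to 0.151, with a mean of 0.0679 against -0.0148 between collections. In 4 of 6 collections the best correlation was with their own. Correlation within a collection was thus weak, though on average higher than between collections. The main fit left the date tags out, and the block was run as an alternative only. Low counts limit genes near the floor of 0.0926 to 0.201 CPM.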
